A study of Mus musculus with 6 samples.

Results

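The H2 genes are the mouse major histocompatibility genes of chromosome 17. Members were the protein-coding genes of GENCODE vM21 on chromosome 17 whose symbols start with H2- (hyphen included), which gave 34 of 21911 protein-coding genes. They comprised 24 class I genes, 9 class II genes and H2-Ke6, a hydroxysteroid dehydrogenase that lies in the region and carries its prefix but does not present antigen. Of the class I genes, 2 were classical (class Ia: H2-K1 and H2-D1) and 22 nonclassical (class Ib), of which 6 were Q genes, 4 T genes and 12 M genes. Of the class II genes, 4 were classical (H2-Aa, H2-Ab1, H2-Eb1 and H2-Eb2) and 5 nonclassical (H2-DMa, H2-DMb1, H2-DMb2, H2-Oa and H2-Ob).

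The data were 6 lists of H3K4me3 peaks, 1 per condition, from STHdh cells, which are immortalised striatal progenitor cells of the mouse (strain label C57BL/6). H3K4me3, trimethylated lysine 4 of histone H3, lies at the starts of genes in open chromatin. Q7SST came from the wild-type STHdhQ7 line with vehicle and Q111SST from the STHdhQ111 line, which expresses polyglutamine-expanded huntingtin, with vehicle. The remaining 4 lists came from STHdhQ111 cells given cyproheptadine, loxapine, diacylglycerol kinase inhibitor II (DKI) or meclizine, each at 10 uM, and all cells were kept without serum for 24 hours. Each genotype was 1 cell line, so genotype and line cannot be told apart, and with 1 list per condition no test between lists could be made.

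Class I heavy chains pair with beta-2 microglobulin and show peptides from inside the cell to CD8 T cells and natural killer cells, and nearly all nucleated cells carry the classical ones at some level. Class II alpha and beta chains pair with each other in professional antigen-presenting cells, where the invariant chain Cd74 guards the groove and the DM chaperone loads the peptide. The factor Nlrc5 drives class I genes and Ciita drives class II genes, both through the RFX, CREB and NF-Y proteins bound at a shared promoter module, while NF-kB and interferon-regulated factors add induction.

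A gene counted as marked where at least 1 peak lay no more than 1 kb from any of its annotated starts. Its strength was the percentile, by score, of the strongest such peak among all peaks of the same list, since scores are not on a known common scale. Promoter sequence is shown for 8 members because they span the pattern described below: both class Ia genes and H2-M3, marked in all 6 lists, H2-Q7, absent from the cyproheptadine list, H2-Q2, H2-Q10 and H2-T3, which differed between the lines, and the class II gene H2-Aa, marked in none. Each is the 200 bases before the RefSeq start (GRCm38.p6), 5′ to 3′ in the direction of transcription. Capitals mark matches on either strand to an NF-kB consensus, to CCAAT (the NF-Y box, ATTGG on the other strand) and to TGACG, the core that CREB proteins recognise. The regions are H2-K1 (chr17:34000348-34000547, minus strand), H2-D1 (chr17:35262894-35263093, plus strand), H2-Q7 (chr17:35438955-35439154, plus strand), H2-Q2 (chr17:35342107-35342306, plus strand), H2-Q10 (chr17:35469889-35470088, plus strand), H2-T3 (chr17:36190152-36190351, minus strand), H2-M3 (chr17:37270034-37270233, plus strand) and H2-Aa (chr17:34287824-34288023, minus strand).
H2-K1: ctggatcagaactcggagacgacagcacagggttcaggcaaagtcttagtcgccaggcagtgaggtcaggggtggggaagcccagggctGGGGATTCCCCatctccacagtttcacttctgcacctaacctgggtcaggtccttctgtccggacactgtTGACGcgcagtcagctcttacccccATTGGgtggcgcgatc
H2-D1: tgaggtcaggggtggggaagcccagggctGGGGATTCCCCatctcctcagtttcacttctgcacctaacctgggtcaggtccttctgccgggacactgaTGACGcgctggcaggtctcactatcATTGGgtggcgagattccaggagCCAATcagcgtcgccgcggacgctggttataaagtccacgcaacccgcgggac
H2-Q7: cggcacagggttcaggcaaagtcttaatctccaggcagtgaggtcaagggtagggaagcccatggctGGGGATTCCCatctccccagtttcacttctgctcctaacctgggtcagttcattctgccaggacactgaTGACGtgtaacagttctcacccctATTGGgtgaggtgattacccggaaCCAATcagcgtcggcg
H2-Q2: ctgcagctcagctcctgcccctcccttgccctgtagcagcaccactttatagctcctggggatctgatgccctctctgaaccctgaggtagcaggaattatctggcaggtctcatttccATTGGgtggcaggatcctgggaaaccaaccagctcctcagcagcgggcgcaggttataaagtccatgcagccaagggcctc
H2-Q10: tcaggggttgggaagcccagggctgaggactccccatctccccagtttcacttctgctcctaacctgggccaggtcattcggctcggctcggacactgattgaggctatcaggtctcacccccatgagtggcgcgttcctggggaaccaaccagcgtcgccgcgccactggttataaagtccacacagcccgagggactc
H2-T3: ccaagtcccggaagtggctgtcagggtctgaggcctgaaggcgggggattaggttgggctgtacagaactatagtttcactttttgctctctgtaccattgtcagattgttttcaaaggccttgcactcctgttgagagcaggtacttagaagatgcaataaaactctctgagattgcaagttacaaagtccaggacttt
H2-M3: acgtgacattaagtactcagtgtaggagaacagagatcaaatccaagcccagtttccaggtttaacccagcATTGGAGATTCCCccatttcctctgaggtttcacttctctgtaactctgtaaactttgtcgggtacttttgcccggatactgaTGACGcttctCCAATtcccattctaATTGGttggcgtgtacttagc
H2-Aa: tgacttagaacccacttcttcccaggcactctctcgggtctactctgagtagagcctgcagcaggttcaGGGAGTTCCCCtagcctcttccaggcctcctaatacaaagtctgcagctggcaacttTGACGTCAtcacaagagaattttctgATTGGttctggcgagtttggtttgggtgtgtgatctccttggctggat

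The promoter of H2-K1 held TGACG at -41 to -37 and ATTGG at -16 to -12, counted from the RefSeq start, below an NF-kB match at -111 to -101. In H2-D1 the same order stood further upstream, with TGACG at -101 to -97, ATTGG at -76 to -72 and the NF-kB match at -171 to -161. The NF-kB run of both genes gives 2 overlapping matches, shifted by 1 base. H2-Q7, H2-M3 and H2-Aa also held TGACG followed by ATTGG, and in H2-Aa the TGACG lies in a palindrome that gives 2 overlapping matches. In H2-M3 an additional ATTGG overlaps the NF-kB match. For H2-D1, H2-Q2, H2-T3 and H2-M3 the RefSeq start lies downstream of a GENCODE start used to place peaks, at 35263094 against 35262730 for H2-D1. In H2-Q2 the capitals mark only an ATTGG at -81 to -77, and in H2-Q10 and H2-T3 no capitals fall in the 200 bases shown.

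Entries of 300 bases (250 before and 50 after the start) were found for 31 of the 34 members. H2-Ab1, H2-Q1 and H2-T24 had none. A TGACG followed by an ATTGG with their starts 24 to 26 bases apart, on either strand, was present in 5 of the 31 members (16.1%), namely H2-K1, H2-D1, H2-Q7, H2-M3 and H2-Aa. It was present in 46 of all 16522 entries (0.278%). This spacing was chosen after the sequences had been seen. CCAAT was present in 27 members (87.1%, against 38.8% of all entries), TGACG in 12 (38.7% against 24.4%) and the NF-kB consensus in 9 (29.0% against 9.07%). GAAANNGAAA, a core of the interferon-stimulated response element, was present in 2 members (6.45% against 3.47%), H2-T23 and H2-T22. These are matches of letters, related members share sequence by descent, and no binding was measured.

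CG dinucleotides were few at H2 promoters, including those that were marked. The 7 members with an entry that were marked in all 6 lists had a median of 9 CG dinucleotides in 300 bases, whereas all protein-coding promoters marked in all 6 lists had a median of 22. The 17 members marked in none had a median of 2, from 0 to 5, and all promoters marked in none had a median of 3. The highest value was 29 at H2-DMa, whose RefSeq start lies beside the bromodomain gene Brd2. Members thus differed in CG content between marked and unmarked, as all promoters did, but at a lower level.

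**Figure D1:**
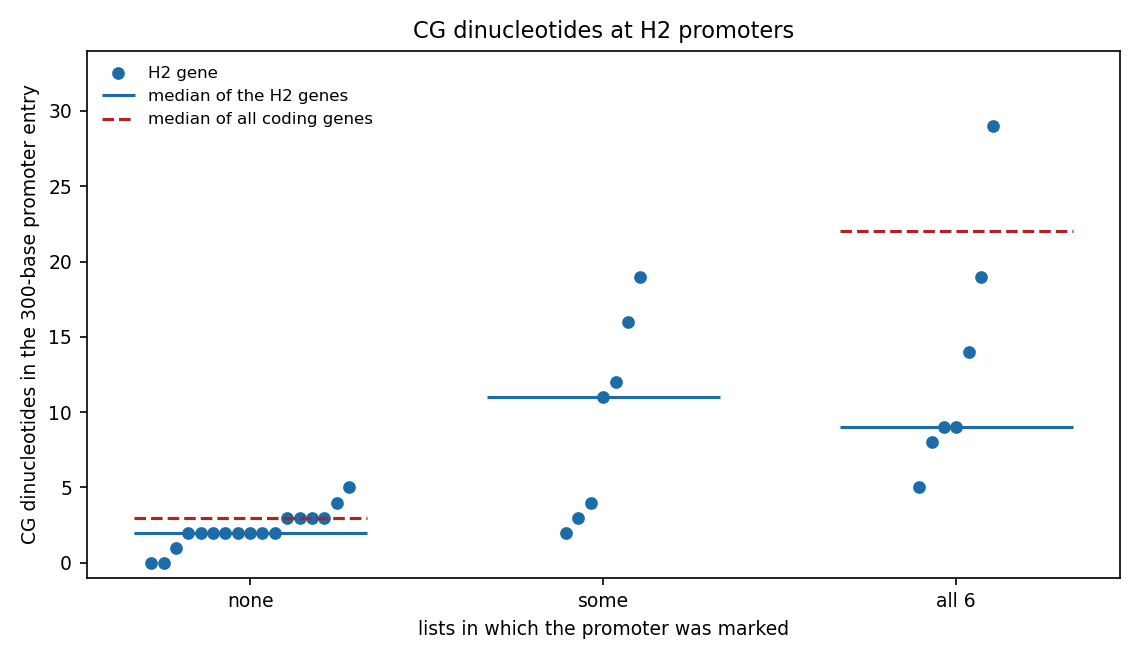
Number of CG dinucleotides in the 300-base RefSeq promoter entry (y axis) of 31 H2 genes, 1 point each, by the number of lists in which the gene was marked (x axis), with the median of the H2 genes (solid) and, for none and all 6, the median of all protein-coding genes (dashed). H2 genes marked in all 6 lists had a median of 9, below the 22 of all genes marked in all 6.

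The lists marked 15 members in Q7SST, 15 in Q111SST, 14 with meclizine, 13 with DKI, 14 with loxapine and 9 with cyproheptadine. The share of all protein-coding genes marked was 58.6% in Q7SST, 57.1% in Q111SST, 57.3% with meclizine, 54.6% with DKI, 56.9% with loxapine and 54.1% with cyproheptadine. In all 6 lists 9 of 34 members were marked, against 52.3% of all protein-coding genes. These were H2-K1, H2-D1, H2-Q4, H2-T22, H2-T23, H2-T24, H2-M3, H2-Ab1 and H2-DMa. A further 8 were marked in some lists and 17 in none, against 38.5% of all protein-coding genes in none. Which members were marked varied by class, and no test of a class was made.

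Class I genes outside the M region were all marked in at least 1 list. Of these 12, the list marked 10 in Q7SST, 10 in Q111SST, 10 with meclizine, 8 with DKI, 9 with loxapine and 6 with cyproheptadine. Of the 12 M genes, which include the M10 genes known from the vomeronasal organ, H2-M3 was marked in every list and the other 11 (H2-M1, H2-M2, H2-M5, H2-M9, H2-M11 and H2-M10.1 to H2-M10.6) in none. Of the 9 class II genes, 2 were marked with cyproheptadine and 3 in every other list. H2-Aa, H2-Eb1, H2-Eb2, H2-Oa, H2-Ob and H2-DMb2 were marked in none. Thus H2-Ab1, the beta chain, was marked, and H2-Aa, the alpha chain with which it pairs, was not.

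**Figure D2:**
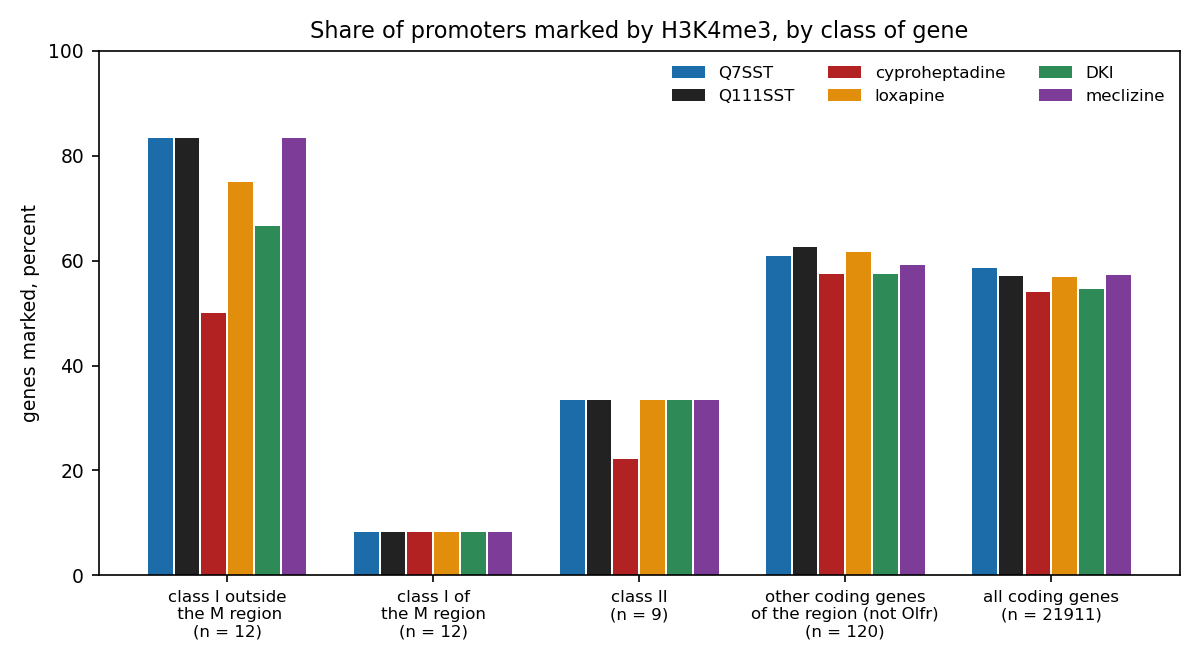
Percent of genes marked (y axis) in each of the 6 peak lists (bars, 1 per list) for H2 genes by class, for the other coding genes of the region and for all protein-coding genes, with the number of genes under each group. In Q111SST 10 of 12 class I genes outside the M region were marked, against 1 of 12 in the M region and 3 of 9 class II genes.

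Distances to the nearest peak differed among the members marked in none. The nearest peak to H2-Aa lay 8187 to 24225 bp away over the 6 lists, and that to H2-Eb2 29109 to 62099 bp. H2-DMb2 was nearest to being marked, with a peak 2692 to 3352 bp away, and counted as marked in all 6 lists with a window of 5 kb. A stretch without peaks held 8 of the unmarked M genes in every list, and was 510 kb long in Q7SST and 521 kb in Q111SST (chr17:36315773-36836364 on GRCm38). No other protein-coding gene lay wholly in that stretch. Between the outermost members there were 139 other protein-coding genes, of which 73 were marked in Q7SST and 75 in Q111SST, so the region as a whole was not free of the mark.

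The classical genes were marked at intermediate strength among all peaks of a list. H2-K1 (ENSMUSG00000061232.16, chr17:33996017-34000347, minus strand) stood at percentile 75.3 in Q7SST, 63.6 in Q111SST, 60.4 with meclizine, 67.4 with DKI, 66.2 with loxapine and 57.7 with cyproheptadine. H2-D1 (ENSMUSG00000073411.11, chr17:35262730-35267499, plus strand) stood at 69.9 in Q7SST, 62.5 in Q111SST, 66.7 with meclizine, 72.0 with DKI, 48.6 with loxapine and 79.1 with cyproheptadine. The 2 genes did not keep the same order, since H2-D1 was above H2-K1 with cyproheptadine, DKI and meclizine and below it in Q7SST, Q111SST and loxapine. Both lay below the median of marked protein-coding promoters, 80.4 in Q7SST and 82.6 in Q111SST. Peaks at H2-K1 ran from upstream over the start, the untranslated and coding exon sequence and into an intron. Those at H2-D1 lay almost wholly downstream of the GENCODE start at 35262730, but in every list covered the RefSeq start at 35263094.

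Widths of the class Ia peaks fell into 2 ranges. The H2-K1 peak was 1961 bp wide in Q111SST, 1988 bp with loxapine and 2088 bp with meclizine, and 1486 bp in Q7SST, 1074 bp with cyproheptadine and 997 bp with DKI. The H2-D1 peak was 1788 bp in Q111SST and 2187 bp with loxapine, and between 1073 and 1229 bp in the other 4 lists. Over all marked protein-coding genes the median width was 1808 bp in Q111SST, 1733 bp with loxapine, 1687 bp with meclizine and 1724 bp in Q7SST, but 1553 bp with cyproheptadine and 1469 bp with DKI. Promoter peaks in general were thus narrow with cyproheptadine and DKI, and those of H2-K1 and H2-D1 were narrow in these lists too.

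Among the T genes, H2-T23 encodes Qa-1, which presents leader peptides of class I chains to CD94/NKG2A receptors, and H2-T22 encodes a ligand of gamma delta T cells. H2-T23 stood at percentile 80.1 in Q7SST, 73.6 in Q111SST, 67.1 with meclizine, 68.6 with DKI, 70.0 with loxapine and 54.2 with cyproheptadine. H2-T22 stood at 84.7 in Q7SST, 70.7 in Q111SST, 64.5 with meclizine, 65.4 with DKI, 59.5 with loxapine and 75.4 with cyproheptadine. For both, the highest value was that of the wild-type line. The H2-T22 peak also lay within 1 kb of a start of Gm6034 and can belong to either gene. It was 3537 bp wide in Q111SST, 3687 bp with loxapine and 2894 bp with meclizine, reaching upstream, against 1450 bp in Q7SST, 1610 bp with cyproheptadine and 1331 bp with DKI. Among promoter peaks of the same list the width of H2-T22 was at percentile 98.1 in Q111SST and 33.8 in Q7SST.

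H2-T24 had the widest spread of strength of any member. It stood at percentile 56.1 in Q7SST, 35.4 in Q111SST, 44.7 with meclizine, 1.15 with DKI, 33.1 with loxapine and 22.04 with cyproheptadine. H2-T3, which encodes the thymus leukaemia antigen of intestinal epithelium and thymocytes, was marked in Q7SST alone, at percentile 11.4, by a peak of 325 bp that began 554 bp downstream of a start.

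H2-M3, which presents N-formylated peptides of bacteria and mitochondria, was the strongest class I member in 5 of the 6 lists, cyproheptadine being the exception. It stood at 94.1 in Q7SST, 90.7 in Q111SST, 87.9 with meclizine, 86.9 with DKI, 82.1 with loxapine and 72.1 with cyproheptadine. Its peak hardly varied in extent, from 914 to 1076 bp, and lay over the start in every list. It stood apart from the rest of the M genes in being marked at all.

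The Q genes varied in which lists marked them, 5 of the 6 being marked in some lists only. H2-Q4, the only Q gene marked in all 6, stood at 70.6 in Q7SST, 72.4 in Q111SST, 59.9 with meclizine, 26.6 with DKI, 55.9 with loxapine and 32.0 with cyproheptadine. Its lowest values were thus those of DKI and cyproheptadine. H2-Q7, which encodes a Qa-2 antigen, stood at 23.7 in Q7SST, 53.1 in Q111SST, 20.2 with meclizine, 20.2 with DKI and 61.4 with loxapine, and was not marked with cyproheptadine. H2-Q6 stood at 2.76 in Q7SST, 36.8 in Q111SST, 34.8 with meclizine, 7.80 with DKI and 24.3 with loxapine, and was not marked with cyproheptadine either. In Q7SST the H2-Q6 peak began 450 bp downstream of the start, whereas in the other 4 lists it covered the start.

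The remaining Q genes were weak wherever they were marked. H2-Q1 stood at 14.9 in Q111SST, 3.40 with loxapine and 31.4 with meclizine, in each list by a peak that began downstream of the start. H2-Q2 stood at 6.76 in Q111SST and 31.4 with meclizine. H2-Q10, which encodes a secreted class I chain of the liver, was marked in Q7SST alone, at 16.9, by a peak of 197 bp. None of these 3 was marked with cyproheptadine or DKI.

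**Figure D3:**
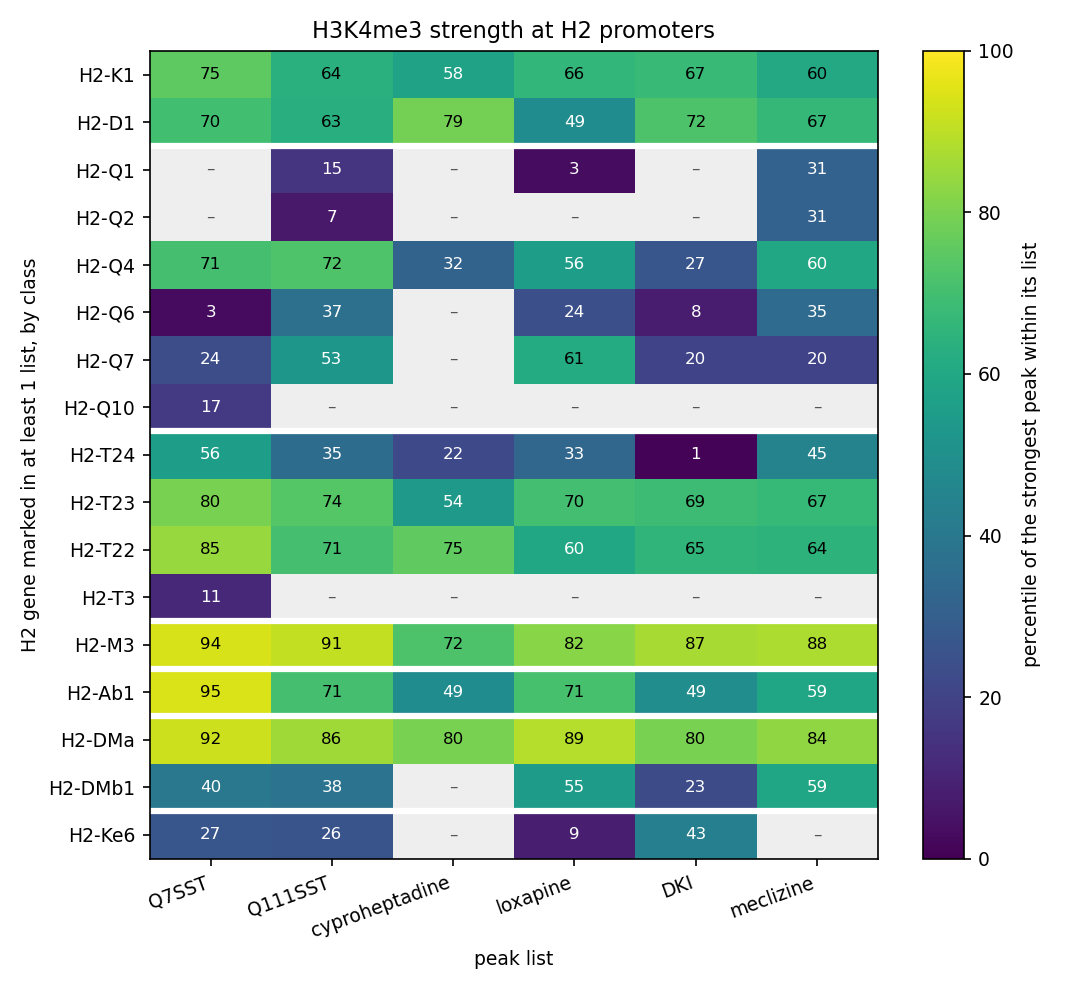
Strength of H3K4me3 at the 17 H2 genes marked in at least 1 list (rows, grouped by class) in the 6 peak lists (columns), as the percentile of the strongest promoter peak within its list, with a dash where no peak lay within 1 kb. H2-M3, H2-DMa, H2-T23, H2-T22 and the class Ia genes were marked throughout, and the cyproheptadine column has 8 dashes.

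Class II members that were marked had short peaks. H2-Ab1 (ENSMUSG00000073421.6) was marked at the second of its 2 annotated starts, at position 34263209. It stood at percentile 94.5 in Q7SST, 70.7 in Q111SST, 58.8 with meclizine, 48.9 with DKI, 70.9 with loxapine and 48.6 with cyproheptadine. Its peak was 455 bp wide in Q7SST, 969 bp in Q111SST, 1269 bp with meclizine, 285 bp with DKI, 831 bp with loxapine and 392 bp with cyproheptadine. In Q7SST it was the strongest of all members, in a peak whose width was at percentile 3.29 of promoter peaks.

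H2-DMa, the alpha chain of the DM chaperone, was marked by 2 peaks in every list. The wider, 953 to 1231 bp, began 9 to 93 bp downstream of the RefSeq start at 34122832 and stood at 81.1 in Q7SST, 85.7 in Q111SST, 83.6 with meclizine, 80.0 with DKI, 89.0 with loxapine and 80.0 with cyproheptadine. It lay within 1 kb of a Brd2 start and can belong to that gene. The narrower, 253 to 419 bp, covered another start at 34135628 and stood at 92.3 in Q7SST, 81.0 in Q111SST, 75.8 with meclizine, 69.2 with DKI, 84.3 with loxapine and 74.3 with cyproheptadine. H2-DMb1, a beta chain of DM, stood at 40.1 in Q7SST, 38.1 in Q111SST, 58.8 with meclizine, 23.4 with DKI and 55.1 with loxapine, and was not marked with cyproheptadine. Its peaks of 208 to 594 bp lay just downstream of the GENCODE start at 34153072 and covered the RefSeq start at 34153191. H2-Ke6 stood at 26.8 in Q7SST, 25.9 in Q111SST, 8.50 with loxapine and 43.0 with DKI, and was not marked with cyproheptadine or meclizine.

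**Figure D4:**
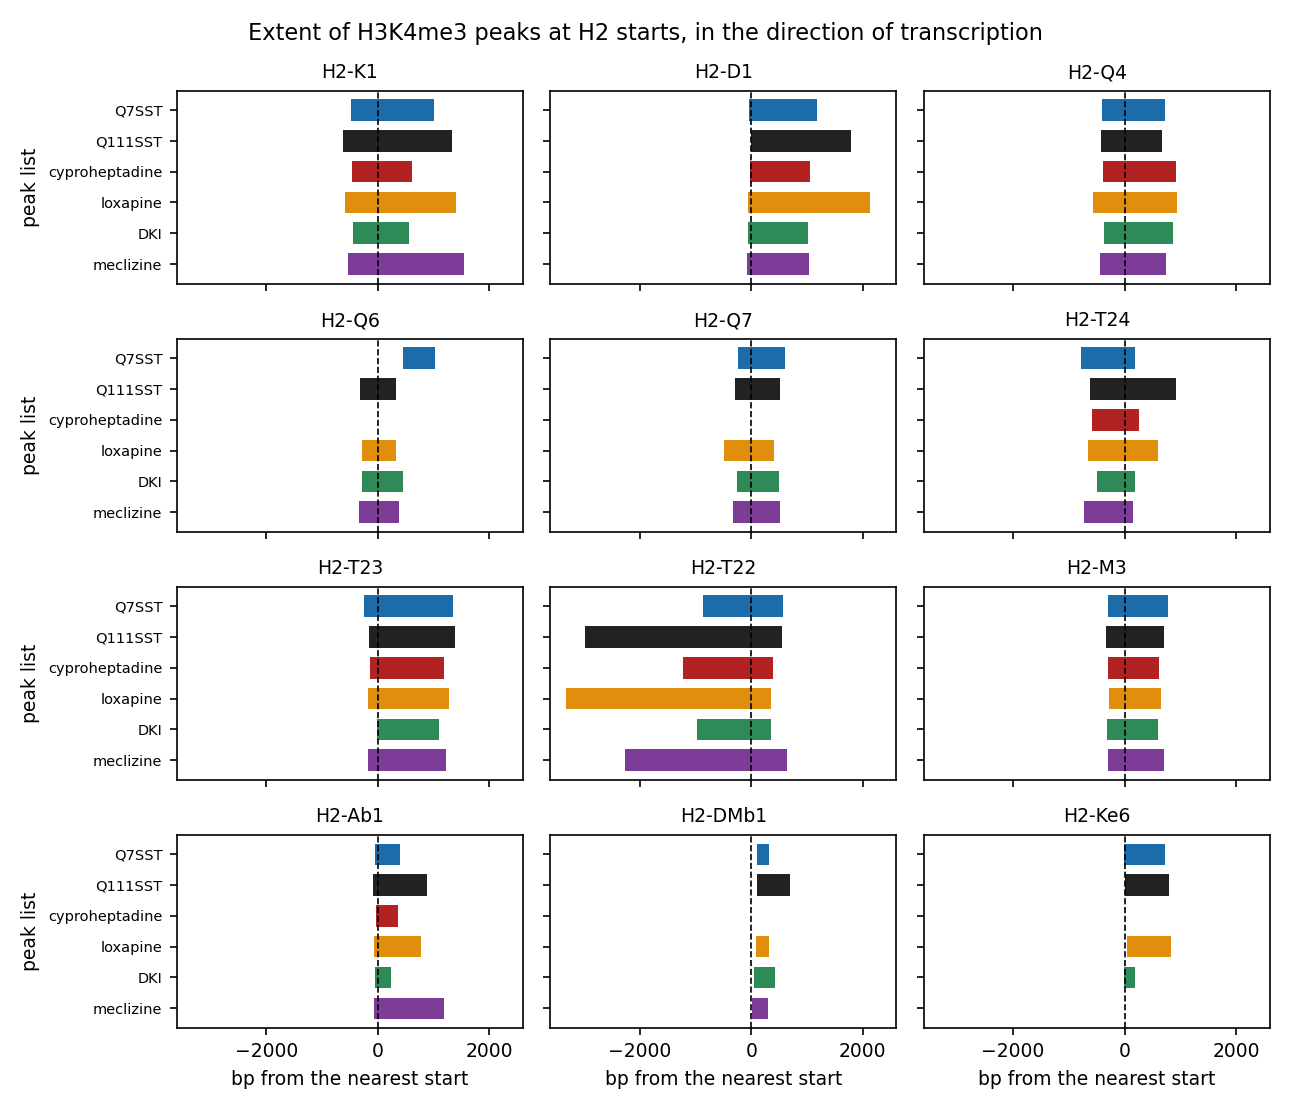
Extent of the peaks at 12 H2 genes in the 6 lists (rows, 1 colour per list), in bp from the nearest annotated start (dashed line at 0) in the direction of transcription. At H2-T22 the peaks of Q111SST, loxapine and meclizine reached further upstream than the others, at H2-M3 all 6 had nearly the same extent, and at H2-Q6 the Q7SST peak lay downstream of the start.

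As a group, marked members were weaker and narrower than marked promoters in general. Their median strength was 69.9 in Q7SST, 62.5 in Q111SST, 59.4 with meclizine, 48.9 with DKI, 57.7 with loxapine and 57.7 with cyproheptadine. For all marked protein-coding genes the median was 80.4 in Q7SST, 82.6 in Q111SST, 80.3 with meclizine, 75.8 with DKI, 83.0 with loxapine and 79.5 with cyproheptadine. Their median width was 836 bp in Q7SST and 1032 bp in Q111SST, against 1724 and 1808 bp for all marked protein-coding genes. In Q7SST 15 of 15 members and in Q111SST 13 of 15 were narrower than that median.

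The comparison of Q7SST with Q111SST addresses the difference between the wild-type and the mutant line. Of the 15 members marked in Q111SST, 2 (H2-Q1 and H2-Q2) were not marked in Q7SST, against 3.58% of all marked protein-coding genes. Of the 19 members not marked in Q111SST, 2 (H2-Q10 and H2-T3) were marked in Q7SST, against 8.19% of genes. These 4 promoters were weak in the list that marked them, at percentile 16.9 or below, and with lists of equal size none of the 4 was marked in either line. Of the 13 members marked in both, 10 had a higher percentile in Q7SST, against 41.9% of all genes marked in both, and 9 a narrower peak, against 60.5%. The 3 that were lower were H2-Q4, H2-Q6 and H2-Q7. Among the other coding genes of the region, 47 of 72 marked in both had a higher percentile in Q7SST, so the neighbours also stood higher there. The median difference was 6.51 percentile points over the members, 2.12 over those neighbours and -1.05 over all protein-coding genes. For H2-DMa the strongest peak was the narrow one in Q7SST and the wide one near Brd2 in Q111SST. With the wide H2-DMa peak in both lists, which was chosen after seeing the data, 9 of 13 members had a higher percentile in Q7SST, 8 a narrower peak, and the median difference was 3.40 percentile points. With the narrow peak in both, the counts were 10 and 9 and the median difference 6.51.

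The compound lists were each set against the same Q111SST list, so the 4 comparisons are not independent. With cyproheptadine 6 of 15 members were not marked (H2-Ke6, H2-DMb1, H2-Q1, H2-Q2, H2-Q6 and H2-Q7), against 5.72% of genes marked in Q111SST, and 0 were marked anew, against 0.66%. The cyproheptadine list held 33721 peaks and the Q111SST list 40406, while the DKI list was the shortest with 30758. With lists of equal size, 4 of the 13 members marked in Q111SST were not marked with cyproheptadine. With a peak required over a start, 3 members were not marked with cyproheptadine. All 6 members named above were weak to intermediate in Q111SST, from percentile 6.76 to 53.1. Among all promoters at or below percentile 50 in Q111SST, 51% (615 of 1206) were not marked with cyproheptadine, and among members at or below it the count was 5 of 6. That limit was chosen after the values had been seen, and no test was made. Of the 9 members marked in both, 2 (H2-D1 and H2-T22) had a higher percentile, against 27.6%, and 8 a narrower peak, against 87%. The median difference in strength was -13.4 percentile points over these members and -3.79 over all protein-coding genes. In the other coding genes of the region 6 of 75 were not marked with cyproheptadine.

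With loxapine 1 member (H2-Q2) was not marked, against 2.08% of genes, and 0 were marked anew, against 2.17%. Of 14 members in both, 5 had a higher percentile (46.4% of genes) and 7 a narrower peak (55.6%), with a median difference in strength of -6.10 percentile points against -0.386 over all genes. With DKI 2 members (H2-Q1 and H2-Q2) were not marked, against 4.93%, and 0 were marked anew, against 0.596%. Of 13 members in both, 3 had a higher percentile (21.4%) and 11 a narrower peak (92.2%), with a median difference of -5.63 against -6.68. With meclizine 1 member (H2-Ke6) was not marked, against 1.33%, and 0 were marked anew, against 2.21%. Of 14 members in both, 5 had a higher percentile (35.1%) and 8 a narrower peak (74.9%), with a median difference of -2.47 against -1.56. For DKI the members' counts of strength and width lay near these shares, and the counts of members in both lists rest on at most 14 genes.

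Near-identical copies limit how far a peak can be assigned to a member, because 50-base reads from shared sequence fit more than 1 place and how such reads were treated is not given in the sources used here. Of the 50-base words around the starts of H2-Q6 and H2-Q7, 42.2% and 46.7% occurred at a single place in the reference genome, and 46.9% of the words of H2-Q6 also occurred at H2-Q5. H2-T23 had 53.9%, sharing mostly with H2-T-ps, H2-T22 had 76.0%, sharing with H2-T10, and H2-DMb1 had 83.7%, sharing with H2-DMb2. The values of H2-Q6, H2-Q7, H2-T23 and H2-T22 are therefore uncertain. The 17 members marked in none had 90.5% to 100%, and the class Ia genes had 88.9% (H2-K1) and 96.7% (H2-D1). Over the peaks of the class Ia genes, rather than the window, the share was 83.7% (H2-K1) and 86.3% (H2-D1). For both, the locus that shared the most words was H2-Q4. The reference is that of C57BL/6J, and the haplotype of the lines in this region was not examined.

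**Figure D5:**
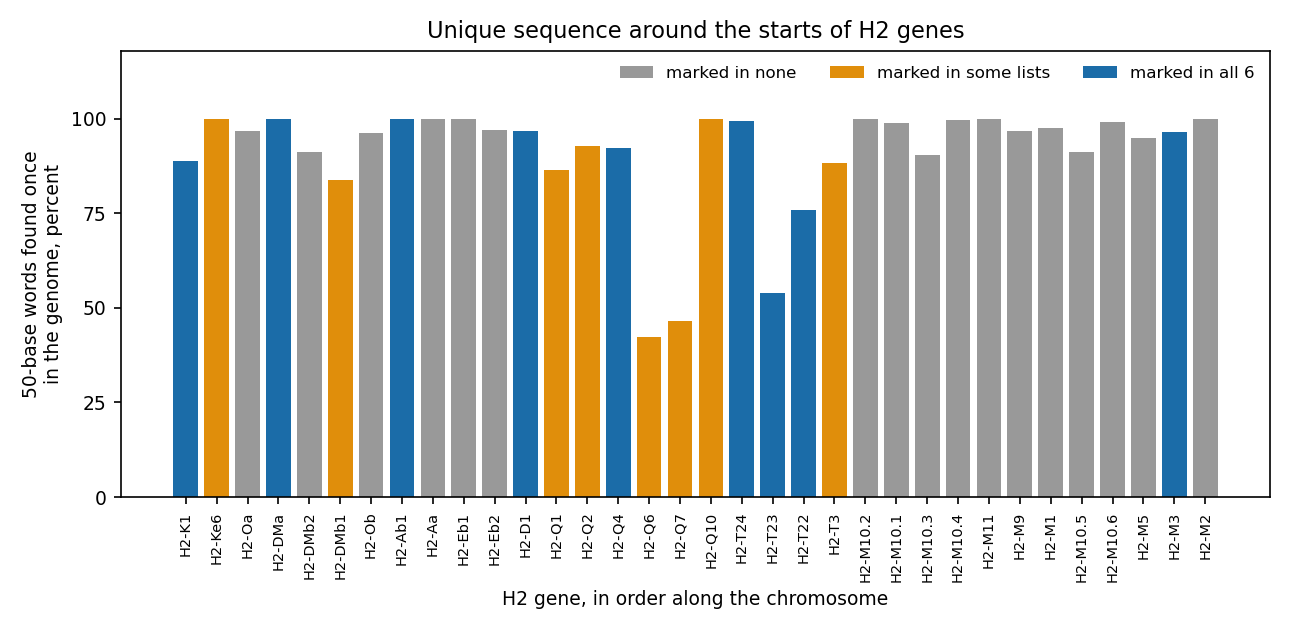
Percent of 50-base words within 1 kb of a start that occur at a single place in the reference genome (y axis) for each of the 34 H2 genes in chromosomal order (x axis), coloured by the number of lists in which the gene was marked. H2-Q6 (42.2%), H2-Q7 (46.7%) and H2-T23 (53.9%) are lowest, and the genes marked in none are at 90.5% or above.

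Genes that supply and load class I peptides were marked throughout, 14 of 14 in all 6 lists, against 52.3% of all protein-coding genes. B2m, which encodes beta-2 microglobulin, stood at 93.8 in Q7SST and 91.6 in Q111SST, and from 82.6 to 90.2 with the compounds. Tap2, a subunit of the peptide transporter, stood at 55.4 in Q7SST, 58.3 in Q111SST, 51.6 with meclizine, 45.1 with DKI, 52.8 with loxapine and 29.0 with cyproheptadine. Tap1 and the immunoproteasome gene Psmb9, whose starts lie head to head, shared a peak at 87.6 in Q7SST and 83.7 in Q111SST. The loading factor Tapbp stood at 79.0 and 70.7, and the immunoproteasome gene Psmb8 at 67.2 and 68.0, in Q7SST and Q111SST. The class I supply genes were thus marked in both lines. Of the 24 class I heavy-chain genes, 11 were marked in each line, against 58.6% of all protein-coding genes in Q7SST and 57.1% in Q111SST.

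Of the class II loading genes that could be scored, Ctsl was marked in all 6 lists and the invariant chain Cd74 and the protease Ctss in none, and Ifi30 is not listed as protein-coding in this annotation. Of 14 regulators 13 were marked in all 6, against 52.3% of all protein-coding genes, and Ciita was marked in none. Nlrc5 stood at 86.5 in Q7SST, 97.1 in Q111SST, 90.1 with meclizine, 84.0 with DKI, 89.2 with loxapine and 81.3 with cyproheptadine. Rfx5, a subunit of the RFX complex, stood between 96.3 and 98.2 in every list. H2-Ab1 was thus marked in lists in which Ciita and Cd74 were not.

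Markers of other cell types were read in the same lists, including those of cells that carry class II. Of 6 microglia and macrophage markers, Ptprc, Csf1r, Itgam, Cx3cr1 and Spi1 were marked in none of the lists, and Aif1 was marked at 6.14 in Q7SST and 4.91 in Q111SST. Of the B and dendritic cell markers reported, Cd79a and Itgax were marked in none, and Flt3 was marked at 56.1 in Q7SST, 18.7 in Q111SST, 1.15 with DKI and 14.0 with meclizine. Of 3 endothelial markers, Pecam1 and Cdh5 were marked in none, and Tek was marked at 18.7 in Q111SST and 3.04 with meclizine. For the label of striatal progenitor, Vim was marked in all 6 lists, Nes in all but cyproheptadine and Sox2 in all but Q7SST, while of 4 neuron markers Map2 and Tubb3 were marked in all 6 and Rbfox3 and Snap25 in none. Of 3 astrocyte markers Slc1a3 was marked in all 6 and Gfap and Aqp4 in none, and of 4 oligodendrocyte markers Mbp was marked with meclizine, at 4.42, and Olig1, Olig2 and Sox10 in none. Striatal lineage markers numbered 7 of 8 in Q7SST and 4 of 8 in Q111SST, with Dlx1, Bcl11b and Gsx2 in Q7SST alone. Of 5 fibroblast markers, Col1a1, Dcn and Pdgfra were marked in all 6, Thy1 in none, and Col1a2 in all but Q7SST, at 70.2 in Q111SST and from 48.9 to 65.6 with the compounds. The lines therefore differed in lineage markers as well as in genotype, and the part of this in the H2 differences was not tested.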

How the data were processed

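H3K4me3 ChIP-Seq of STHdh cells gave 6 peak lists, 1 per condition, and groups were taken from the labels. The deposited lists gave a position and a whole-number score per peak, at least 10. The score is the authors' own and its scale is not given in the sources used here, so it was ranked within a list, except for 1 alternative threshold applied to all lists. The submitters' processing notes name Trimmomatic 0.36, Bowtie2, SAMtools 1.3, MACS2 and mm10, without role or order. Thresholds, treatment of reads with several matches, input control and pooling of the triplicates are not given in the sources used here. Read totals were not used here, so depth is unknown, and fewer peaks can come from fewer reads or lower enrichment.

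Members and lists were chosen with earlier results of these data known. Peaks were compared with starts of the GENCODE vM21 basic transcript set on GRCm38. Peaks ended inside the chromosome on each of the 21 chromosomes compared. A gene was marked by a peak within 1 kb of any start. Strength was the mid-rank percentile of the strongest such peak, and its width was used. Neighbours were the 139 other protein-coding genes between the outermost members. Uniqueness was the share of 50-base words without another copy, on either strand, in the whole reference genome. Marked members and differing pathway genes were named, with 10 set pathway genes. Of the cell type markers, 1 is not reported here. Promoters came from RefSeq tables, and motifs were searched on both strands. Marking was tested on simulated peaks. Alternatives were windows of 0 and 5 kb, the pooled median score of 47, lists cut to the strongest 30758 peaks, the gene record's 5′ end, members of mostly unique sequence, peaks near no other gene, merged peaks, summed width, promoter-only percentiles and, added after seeing the data, the comprehensive transcript set, the same H2-DMa peak in both vehicle lists and a limit at percentile 50 for weak promoters. Python 3.11.15, numpy 2.4.6 and pandas 2.3.3 were used.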

Additional observations from a re-analysis of the deposited data

How the results depend on the processing

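Of 128 values recomputed under an alternative, 104 stayed within 1.5 times the main count or inside the 95% binomial interval of the main median, and 24 did not. Where a value moved and its construction does not show why, the cause was not tested. With 1 score threshold for all lists, 9 members each were marked in Q7SST, Q111SST and loxapine, 6 with DKI and 5 with cyproheptadine. Under it 1 member marked in Q111SST was not marked in Q7SST and 1 was marked anew there, as 1 was with loxapine and 2 with meclizine. With lists of equal size 1 member was not marked in Q7SST and 0 were marked anew. Under that setting 4 were not marked with cyproheptadine, 2 with loxapine and 0 with DKI, and 2 were marked anew with meclizine. H2-Q1, H2-Q2, H2-Q10 and H2-T3 all dropped out of those lists in Q7SST or Q111SST, so the differences between the lines at these 4 genes rest on peaks near the bottom of the longer lists. With a peak required over a start, 1 member was marked anew in Q7SST and 1 with DKI, and 3 were not marked with cyproheptadine and 1 with DKI. A window of 5 kb added H2-DMb2 to all 6 lists and H2-Ke6 to cyproheptadine and meclizine, so that 5 of the members marked in Q111SST were missing with cyproheptadine and 0 with meclizine. Among promoter peaks alone, the median strength of members was percentile 34.7 in Q7SST, inside the wide interval of its main value of 69.9, and 21.5 in Q111SST, 21.9 with meclizine, 19.6 with DKI, 19.8 with loxapine and 22.6 with cyproheptadine. The gene record's 5′ end dropped H2-Ab1 and H2-DMa from every list. The comprehensive transcript set, chosen after seeing the data, changed no member. No paired analysis was possible because there was a lone list for each condition. The unknown depth limits every absence, which says only that no peak was listed.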

Other observations

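H2- genes annotated as pseudogenes were no members, but 6 of the 11 were marked in at least 1 list. H2-Bl stood at percentile 88.8 in Q7SST, 80.1 in Q111SST, 74.1 with meclizine, 62.7 with DKI, 65.1 with loxapine and 69.0 with cyproheptadine. H2-T10, a close relative of H2-T22, stood at 71.9 in Q7SST, 53.9 in Q111SST, 54.9 with meclizine, 48.9 with DKI, 72.6 with loxapine and 47.6 with cyproheptadine. H2-T-ps stood at 70.6 in Q7SST and 49.9 in Q111SST, and from 30.3 to 52.2 with the compounds. H2-K2 was marked in all 6 lists, at 5.96 to 23.9. H2-Q5 was marked in all but cyproheptadine, at 5.96 to 33.1, and shares sequence with H2-Q6, which was missing from the same list. H2-Pb was marked in Q7SST alone, at 35.2. H2-Ea-ps, H2-Pa, H2-Q3, H2-M6-ps and H2-M10.5-ps1 were marked in none.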
